A study of Mus musculus with 27 samples.

Results

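Lamp5 interneurons were taken from single-nucleus RNA-seq of mouse hippocampus as nuclei that carried the RNA of GABA synthesis and of Lamp5 (chromosome 2, 136052239 to 136069917, mm10). A nucleus with 200 to 8000 detected genes and at most 5% mitochondrial UMIs (unique molecular identifiers, each standing for 1 captured RNA molecule) entered the GABAergic gate with at least 3 UMIs of Gad1 and Gad2 together, at most 1 UMI of Slc17a7 and at most 1 UMI of Mog and Mag together. It was called a Lamp5 nucleus with at least 2 Lamp5 UMIs, and more Lamp5 UMIs than those of Sst, Pvalb or Vip. Of 241266 filtered nuclei, 14328 passed the gate and 543 were Lamp5 nuclei, 3.79% of the gated nuclei and 0.225% of all filtered nuclei.

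Lamp5 interneurons of the hippocampus are mostly neurogliaform and ivy cells, slow inhibitory neurons with dense axons that release GABA diffusely and reach both GABA-A receptors and GABA-B receptors around them. Many of them make nitric oxide through the synthase Nos1 and the peptide NPY, and many carry the secreted proteins Ndnf or Reln. They arise from both ganglionic eminences. Those of medial origin keep the transcription factor Lhx6, which Sst and Pvalb interneurons also carry, whereas those of caudal origin share Adarb2 and Prox1 with Vip interneurons.

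The study asked how cGAS, the sensor of cytosolic DNA encoded by Cgas, bears on neurons in a mouse model of tauopathy. P301S mice carry human tau with a dementia-linked mutation under the mouse Prnp promoter. The groups differ in whether they carry this transgene and in their Cgas genotype, which is wild type (+/+), heterozygous for the deletion (+/-) or homozygous for it (-/-). Nuclei were isolated from the frozen hippocampus of adult mice and sorted by DAPI, with 1 library for each of 27 mice. Without the transgene there were 5 Cgas+/+ mice (3 males and 2 females), 2 male Cgas+/- mice and 2 male Cgas-/- mice. With it there were 6 mice (3 males and 3 females) of each Cgas genotype, called P301S Cgas+/+, P301S Cgas+/- and P301S Cgas-/-.

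Lamp5 nuclei numbered 4 to 40 per mouse (median 21), and their summed UMIs ranged from 42807 to 628049 per mouse in libraries of 46091490 to 79484316 UMIs. The mouse with 4 nuclei and 42807 UMIs was P301S Cgas+/+ replicate 6, so its levels below carry a large counting error. The 4 groups compared below held 101 (Cgas+/+), 107 (P301S Cgas+/+), 130 (P301S Cgas+/-) and 148 (P301S Cgas-/-) Lamp5 nuclei, and the 2 small groups 29 (Cgas+/-) and 28 (Cgas-/-). The median depth of a Lamp5 nucleus, averaged over mice, was 9144 ± 1356 UMIs (SD, n = 5) in Cgas+/+ mice. With the transgene it was 11344 ± 1926 UMIs for Cgas+/+, 10973 ± 2461 for Cgas+/- and 11693 ± 2346 for Cgas-/- (n = 6 each). The P301S Cgas+/- library of replicate 1 stood apart, with 1536 gated nuclei where the other 5 of its group had 370 to 581, and only 17 of its gated nuclei were Lamp5 nuclei. Matrix headers named software version 3.0.2 in 12 libraries, all from males, and 3.1.0 in 15. Of 234470 distinct barcode sequences, 7324 occurred in at least 2 libraries. Cgas gave 5 UMIs among the 6229160 UMIs of all Lamp5 nuclei, of which 3 were in libraries labelled P301S Cgas-/-, so the Cgas labels could not be checked in these nuclei and groups are named by their labels. Gm43049, a gene of mouse chromosome 3 set beside the transgene label, gave 66 UMIs in 16 of 18 P301S libraries and 0 in the 9 others. P301S Cgas-/- replicate 6 and P301S Cgas+/+ replicate 6 gave 0 UMIs. Comparisons were chosen with earlier results of these data known, so this match is a description and no independent check of the labels.

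Most members sat at the edge of the Lamp5 criterion. Exactly 2 Lamp5 UMIs were counted in 338 members and at least 3 in 205 (highest 10), while 1050 gated nuclei had 1 Lamp5 UMI and were left out. Sv2c, a synaptic vesicle protein gene, was detected in 54.6% of the gated nuclei with 1 Lamp5 UMI, in 64.2% of members with 2 and in 77.1% of members with at least 3, against 17.4% of gated nuclei with 0. For Nos1 the same shares were 46.6%, 58.9%, 66.3% and 17.8%, and for Ndnf they were 24.5%, 27.5%, 28.3% and 8.16%. For these 3 genes the nuclei just outside the criterion lay nearer to the members than to the gated nuclei without Lamp5 UMIs. Median depths over the 4 steps, from 1 UMI to 2, to at least 3 and to 0, were 9478.5, 10028.5, 11272 and 9534 UMIs. Members had a median of 6 Gad1 UMIs and 8 Gad2 UMIs, which the gate had asked for. Their Lamp5 level was 178 to 301.7 CPM (UMIs of a gene in the Lamp5 nuclei of 1 mouse, scaled to a total of 1000000 UMIs), with a mean of 230 ± 37.2 (SD, n = 27).

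The members carried some of the listed markers of Lamp5 interneurons that the rule did not use. Ndnf, Sv2c, Hapln1, Id2 and Kit, genes of neurogliaform and related cells, were each at higher levels in Lamp5 nuclei than in nuclei called Sst (1431 nuclei, median 11083 UMIs), Pvalb (434, median 13332.5) or Vip (611, median 7440) by the same gate and criterion, whereas the median of Lamp5 nuclei was 10650 UMIs. The 4 classes were chosen on UMIs of the same nuclei, so these comparisons between classes are a description and carry no test. Of 16 listed identity genes, 12 had enough UMIs for the fit, and Cplx3 did not. Ndnf, Sv2c, Hapln1, Id2, Kit and Nos1 were higher than in all 3 classes (edgeR, Benjamini-Hochberg adjusted p under 0.05), beside 7.29% of all genes. Npy and Lhx6 were lower than in Sst nuclei, Gabrd lower than in Pvalb nuclei and Adarb2 lower than in Vip nuclei at that threshold. The vesicle gene Sv2c (chromosome 13, 95954594 to 96132577) was at 303 ± 115 CPM in Lamp5 nuclei (SD, n = 27; 64.0 to 539), against means of 8.12 in Sst, 7.62 in Pvalb and 9.24 in Vip nuclei, and was higher in Lamp5 nuclei of 27 of 27 mice in each comparison. Hapln1, a link protein of the extracellular matrix, was at 134 ± 51.8 CPM (36.6 to 267), against 7.52, 15.9 and 4.18 CPM, again higher in 27 of 27 mice. Ndnf (chromosome 6, 65671590 to 65712326), a secreted neurotrophic factor, averaged 102.5 ± 72.0 CPM, ranged from 0 to 273 between mice, and was higher in Lamp5 nuclei of 26 of 27 mice in each comparison. The Lamp5 nuclei of every mouse were thus the higher for Sv2c and Hapln1 and those of all but 1 mouse for Ndnf.

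Reln, Nos1 and Npy marked Lamp5 nuclei off from Pvalb and Vip nuclei. Against Sst nuclei Reln and Nos1 differed far less, and Npy was the lower in Lamp5 nuclei. Reln, the secreted protein reelin, was at 1357 ± 670 CPM in Lamp5 nuclei (396 to 3401) and 1053 ± 243 in Sst nuclei, where it was lower in 16 of 27 mice, against 27.7 in Pvalb and 116 in Vip nuclei. Nos1 (chromosome 5, 117781032 to 117958840), the neuronal nitric oxide synthase, was at 175 ± 58.9 CPM in Lamp5 nuclei (89.5 to 304) and at 119 ± 111 in Sst, 24.7 in Pvalb and 53.3 in Vip nuclei. Npy, the peptide of ivy and many other cells, was at 27.4 ± 20.7 CPM in Lamp5 nuclei, 43.3 ± 21.8 in Sst, 1.70 in Pvalb and 1.63 in Vip nuclei. The Lamp5 level was the higher in 7 of 27 mice against Sst nuclei, 23 against Pvalb and 24 against Vip nuclei. At least 1 UMI was seen in 27.8% of Lamp5 nuclei for Ndnf, 69.8% for Reln, 61.7% for Nos1 and 21.0% for Npy. In nuclei that passed a Slc17a7 gate (21201 nuclei, median 13333 UMIs), which holds excitatory neurons and carries background RNA, those shares were 1.24%, 10.0%, 22.6% and 0.325%, and in nuclei gated on Mog and Mag (32834 nuclei, median 2156 UMIs) they were 0.841%, 3.81%, 1.10% and 0.213%.

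**Figure D1:**
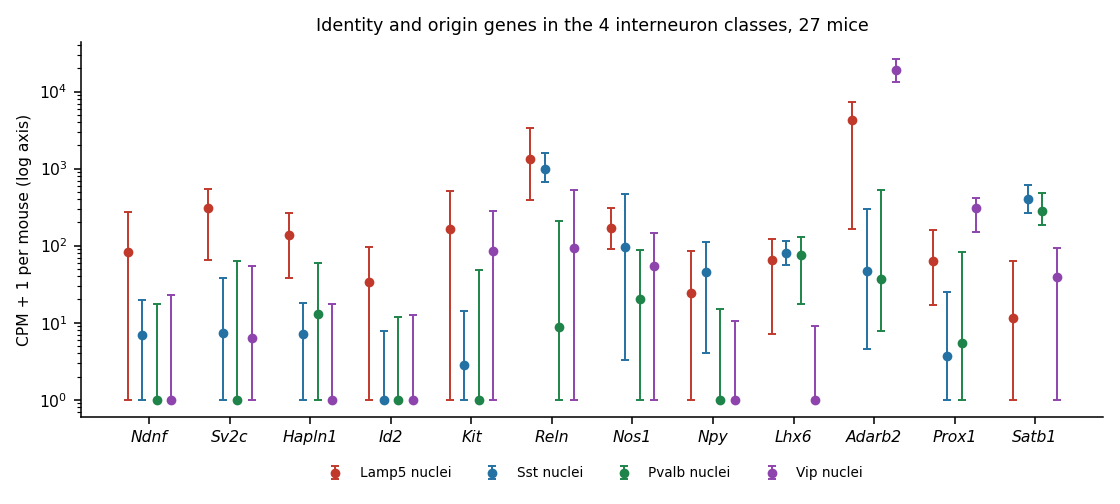
Levels of 12 identity genes and transcription factors in Lamp5, Sst, Pvalb and Vip nuclei, as CPM + 1 on a log axis; each point is the median over 27 mice and each line runs from the lowest to the highest mouse. Sv2c and Hapln1 were higher in Lamp5 nuclei than in each other class in all 27 mice. Lhx6 was nearer to its level in Sst and Pvalb nuclei than to that in Vip nuclei, and Adarb2 lay between those classes and Vip nuclei.

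Transcription factors of medial and of caudal interneurons were compared one by one, and members of each kind gave different orders of the classes. Lhx6 was at 59.7 ± 29.96 CPM (6.11 to 122), below the means of 81.6 in Sst and 74.5 in Pvalb nuclei and far above the 0.905 of Vip nuclei. Its level in Lamp5 nuclei averages members with and without an Lhx6 UMI, which are taken apart below. Adarb2 was at 4288 ± 1483 CPM (164 to 7348), above Sst (72.3) and Pvalb (83.0) nuclei in 27 of 27 mice and below Vip nuclei (19725) in 27 of 27. Prox1, a factor of caudal interneurons, was at 69.9 CPM, between 4.29 in Sst and 309 in Vip nuclei. Nr2f2 and Npas1, also factors of caudal interneurons, had mean levels below those of both Sst and Vip nuclei. Nr2f2 was at 17.1 CPM against 19.4 in Sst nuclei (log2 difference -0.09, and 0.11 with at most 4000 genes; adjusted p = 0.781 in edgeR) and 51.0 in Vip nuclei (-1.54). Npas1 was at 10.5 CPM, below the 68.6 of Sst (-2.85) and the 166 of Vip nuclei (-4.15) in 27 of 27 mice each. Satb1 and Sox6, which act in interneurons of medial origin downstream of Lhx6, did not follow Lhx6. Satb1 was at 13.2 CPM in Lamp5 nuclei against 403 in Sst and 298 in Pvalb nuclei, and Sox6 at 48.3 against 651 and 753, and neither was higher in the Lamp5 nuclei of any mouse in those comparisons. Nkx2-1, the factor that sets up the medial programme, gave at least 1 UMI in 4.42% of Lamp5 nuclei and in 0 of the 1431 Sst, 434 Pvalb and 611 Vip nuclei, which allows shares of nuclei with a UMI of up to 0.210%, 0.691% and 0.491% by counting error over the pooled nuclei and sets no limit on nuclei that express the gene.

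At least 1 Lhx6 UMI was found in 204 members (37.6%), and most of these also held Adarb2. Lhx6 and Adarb2 were detected together in 145 members (26.7%), Lhx6 alone in 59 (10.9%), Adarb2 alone in 303 (55.8%) and neither in 36 (6.63%). After thinning to 5000 UMIs per nucleus, which left 536 members, the 4 shares were 13.2%, 9.89%, 63.8% and 13.1%. Lhx6 was seen in 0.982% of Vip nuclei, and Lhx6-positive members were deeper than Lhx6-negative ones (medians of 12341.5 and 9912 UMIs). Nos1 was detected in 90.2% of Lhx6-positive and 44.5% of Lhx6-negative members (66.2% and 31.0% after thinning), and Ndnf in 3.92% and 42.2% (0.980% and 36.1%). Reln did not divide the members in that way, with 66.7% and 71.7% (59.8% and 66.9% after thinning). Nkx2-1 was detected in 8.82% of Lhx6-positive and 1.77% of Lhx6-negative members.

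Lhx6-positive and Lhx6-negative members held Kit, Ndnf and Nos1 at different levels. At least 10 nuclei of each kind were present in 7 mice (3 P301S Cgas+/-, 3 P301S Cgas-/- and 1 Cgas+/+), and the kinds were compared within mice. The split used UMIs of the same nuclei, so the values describe the kinds and carry no test. Kit, a receptor tyrosine kinase, was at 0 to 14.4 CPM in Lhx6-positive nuclei (median 5.99) and 279 to 694 in Lhx6-negative nuclei (median 365), a log2 difference of -6.16 ± 0.31 (SE, n = 7 mice). Ndnf was at 0 to 7.18 CPM (median 5.44) and 102 to 298 CPM (median 216), with a difference of -5.34 ± 0.35. These ranges did not overlap. Nos1 went the other way, at 212 to 430 CPM (median 301.4) in Lhx6-positive and 52.7 to 173 (median 102) in Lhx6-negative nuclei, a difference of 1.59 ± 0.20 seen in 7 of 7 mice.

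Tacr1, Chrm2 and Adra1b, all receptors of transmitters, were among the genes of largest difference each way. Tacr1, the substance P receptor, was at 138 to 271 CPM in Lhx6-positive and 0 to 47.3 in Lhx6-negative nuclei (log2 difference 3.01 ± 0.29). Chrm2, a muscarinic acetylcholine receptor, was at 0 to 28.7 CPM in Lhx6-positive nuclei and had a median of 690 in Lhx6-negative nuclei, but 2 of the 7 mice held 6.64 and 0 CPM there while the other 5 held 623 to 1815. At least 1 Chrm2 UMI was seen in 10.9% of Lhx6-negative members, so few nuclei carried this level. Adra1b, an alpha-1 adrenergic receptor, gave 2 UMIs in Lhx6-positive and 87 in Lhx6-negative nuclei, a ratio of 45.5 with an exact counting interval of 12.2 to 381. Fam196b gave 1 and 67 UMIs (ratio 70.0, 12.1 to 2807), and 9330158H04Rik, an antisense gene overlapping Chrm2, gave 1 and 70 (ratio 73.2, 12.7 to 2931). The fit by which 9330158H04Rik was named gave it an adjusted p of 0.000326 in edgeR and 0.252 in DESeq2 (both Benjamini-Hochberg).

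The genes higher in Lhx6-positive nuclei by the largest differences included Cntnap4, Amot, Esr1, Sox6 and Chst9. Cntnap4, a neurexin-like adhesion protein of interneurons, was at 988 to 1651 CPM against 19.2 to 534 (log2 difference 2.72 ± 0.49), with an edgeR Benjamini-Hochberg adjusted p of 0.0137, or 0.0606 without the low-count filter, again as a description. Amot, an angiomotin that acts at cell junctions, was at 30.6 to 195 CPM against 0 to 52.4. Esr1, the oestrogen receptor alpha, was at a median of 67.6 CPM against 4.76, and Sox6 at 30.1 against 6.64, each higher in 6 of 7 mice. Over the 24 mice with at least 3 nuclei of each kind, an alternative added after the data were seen, the log2 difference of Sox6 was 1.26 where it was 2.73 in the 7 mice, and its Benjamini-Hochberg adjusted p in edgeR, given as a description, was 0.0877 where it had been 0.00153. Chst9, a sulphotransferase gene, gave 71 UMIs against 3 (ratio 22.6, 7.44 to 112). Over the 24 mice the log2 difference of Chst9 was 1.41 where it was 4.24 in the 7, and that of Amot 1.64 where it was 2.89. Among the other factors, Maf was at 377 to 609 CPM against 167 to 316, without overlap.

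In all, 201 of 3978 genes (5.05%) were past an adjusted p of 0.05 (edgeR with Benjamini-Hochberg adjustment) toward Lhx6-positive nuclei and 227 (5.71%) toward Lhx6-negative nuclei, and nothing is read from these counts because the nuclei were split on expression. Of 11 identity genes in this fit, Nos1, Hapln1 and Eya4 were among the former and Ndnf, Reln, Kit and Adarb2 among the latter. Reln was at 244 to 1227 CPM in Lhx6-positive and 915 to 2518 in Lhx6-negative nuclei (log2 difference -1.36 ± 0.26), so its level differed although the share of nuclei with a Reln UMI hardly did. Npy had medians of 17.97 and 57.0 CPM (difference -1.28 ± 0.42) and was not past the threshold.

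**Figure D2:**
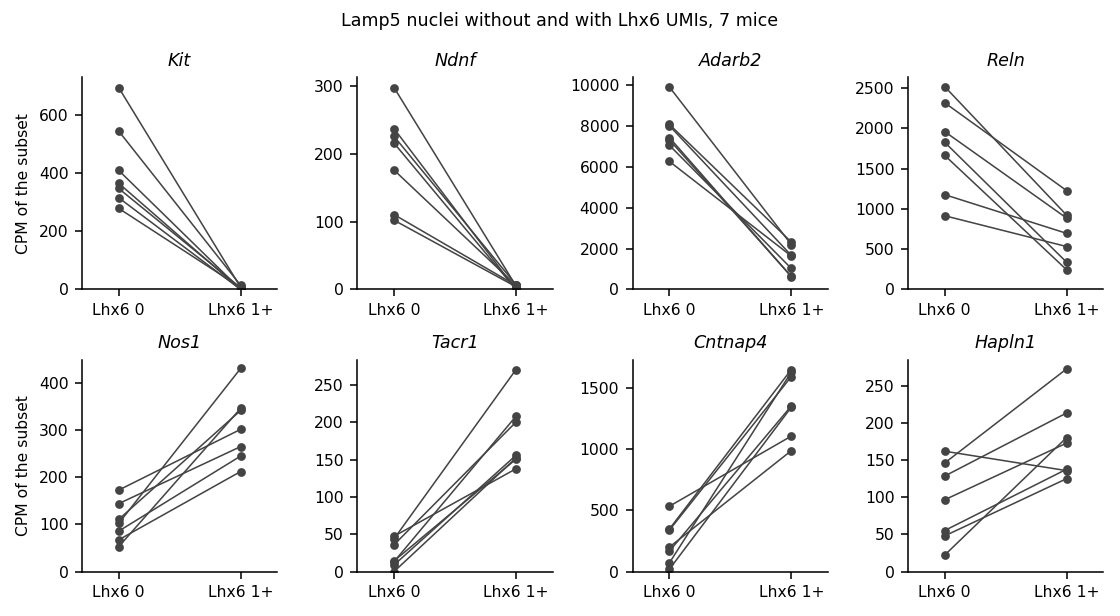
Level of 8 genes in Lhx6-negative and Lhx6-positive Lamp5 nuclei of the 7 mice with at least 10 nuclei of each kind, in CPM; each line joins the 2 values of 1 mouse. Kit, Ndnf and Adarb2 were lower in the Lhx6-positive nuclei of all 7 mice and Nos1, Tacr1 and Cntnap4 higher, whereas Hapln1 was higher in 6.

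Across the whole transcriptome, 480 of 6584 genes (7.29%) were higher and 340 (5.16%) lower in Lamp5 nuclei than in each of Sst, Pvalb and Vip nuclei at an adjusted p under 0.05 (edgeR, Benjamini-Hochberg), with the 9 genes of the rule left out. Against single classes 1271 genes (19.3%) were higher and 1416 (21.5%) lower than in Sst nuclei, 1746 (26.5%) and 1633 (24.8%) for Pvalb, and 1171 (17.8%) and 1143 (17.4%) for Vip. These counts describe classes cut from the same nuclei, and nothing is read from their size. The median log2 difference over all genes was -0.02, 0.02 and 0.01.

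The 8 genes that stood highest in Lamp5 nuclei above all 3 classes were Sv2c, B020031H02Rik, Vcan, Gm3510, Ndnf, Id2, Prlr and Hpse2. Vcan (chromosome 13, 89655312 to 89742509), the matrix proteoglycan versican, was at 185 CPM in Lamp5 nuclei against 11.4, 4.68 and 11.5 in Sst, Pvalb and Vip nuclei, higher in 27 of 27 mice in each comparison. Its log2 difference was 4.03 ± 0.18, 5.11 ± 0.27 and 3.90 ± 0.24 (SE, n = 27 mice). Vcan is also a marker of oligodendrocyte progenitors. It was detected in 59.3% of Lamp5 nuclei, and the progenitor markers Pdgfra in 1.84%, Cspg4 in 0.737%, Olig1 in 1.29% and Olig2 in 0.368%. Id2, an inhibitor of helix-loop-helix factors, was at 33.4 ± 19.9 CPM and differed by 4.31 ± 0.28, 3.78 ± 0.34 and 3.55 ± 0.35. Prlr, the prolactin receptor, was at 49.1 CPM in Lamp5 nuclei. Pooled over mice it gave 324 UMIs there against 0 in Pvalb nuclei, a lower limit of 108.567-fold by counting error only. Hpse2, a heparanase relative, gave 135 UMIs against 3 in Pvalb nuclei (ratio 45.2, exact interval 15.2 to 222). Gm3510 and B020031H02Rik are long noncoding RNAs, and Gm3510 lies 1284 bases from Cacna2d1 on the other strand.

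The 8 genes that stood lowest were Tbc1d4, A930002C04Rik, Rnf144b, Gm21949, 6330576A10Rik, Gpc6, Lama3 and Slc9a9. Tbc1d4 (chromosome 14, 101442360 to 101609191), a Rab GTPase-activating protein of insulin-regulated trafficking, was at 4.94 CPM in Lamp5 nuclei against 94.9, 122 and 67.3 in the other classes and was lower in 27 of 27 mice in each comparison. Slc9a9, an endosomal sodium-proton exchanger, was at 53.1 CPM against 380, 266 and 232, also lower in 27 of 27 mice. Gpc6, a glypican of the cell surface, was at 155 CPM against 1149, 805 and 983. Rnf144b, a ubiquitin ligase, was at 22.2 CPM against 150, 339 and 171, and A930002C04Rik overlaps it on the other strand. Gm21949 overlaps Iqcj and Schip1 on the same strand, so its reads cannot be assigned with certainty.

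**Figure D3:**
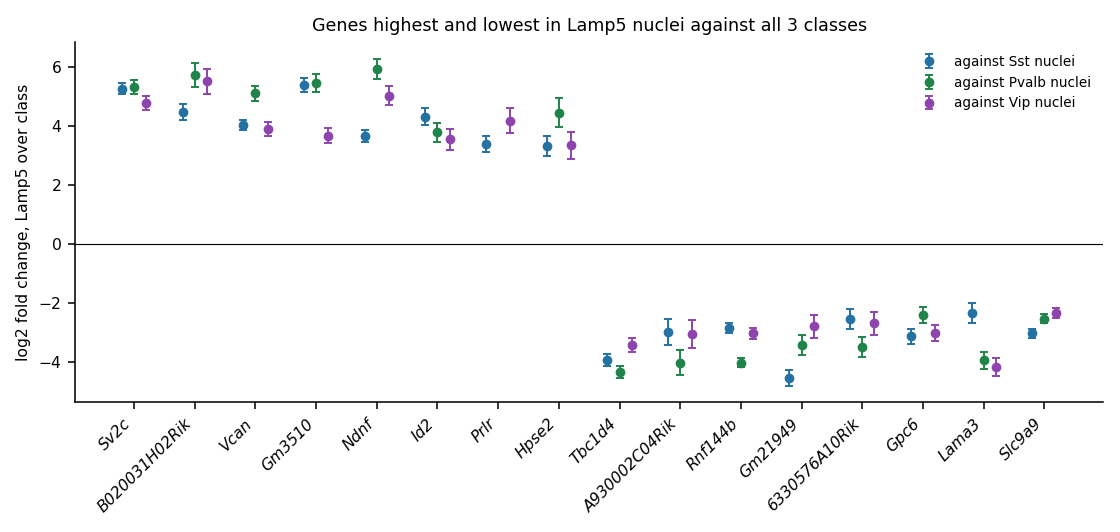
Log2 difference between Lamp5 nuclei and Sst, Pvalb or Vip nuclei for the 16 named genes, with genes along the horizontal axis and bars of 1 SE over 27 mice. The 8 genes on the left lie above 0 and the 8 on the right below 0 in each comparison; Prlr against Pvalb nuclei is left out because those nuclei gave 0 UMIs.

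Members of the gene lists that passed against all 3 classes are given next, as a description beside the 7.29% higher and 5.16% lower over all genes. Gabbr2 and Kctd16, from the list of GABA synthesis, transport and the synapse, were higher than in all 3 classes. Gabbr2, a GABA-B receptor subunit, was at 1250 CPM against 464, 735 and 421 in Sst, Pvalb and Vip nuclei, and its auxiliary subunit Kctd16 at 2684 against 914, 371 and 1459. Lamp5 nuclei were the higher in at least 26 of 27 mice in every one of these comparisons. Among the GABA-A receptor subunits, Gabra5 and Gabrb2 were higher than in all 3 classes and Gabra3 lower, with list medians of 0.95, 0.49 and 0.57 (log2) against Sst, Pvalb and Vip. Gabra5, an extrasynaptic subunit of tonic inhibition, was at 88.8 CPM against 16.6, 13.6 and 26.9. Gabrd, the delta subunit known from neurogliaform cells, was at 35.3 CPM against 5.68 in Sst and 2.67 in Vip nuclei, but at 62.2 in Pvalb nuclei, where Lamp5 nuclei were the higher in 1 of 27 mice.

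The lists of glutamate receptors and channels held genes on both sides as well, and no comparison between lists was made. Among the glutamate receptor subunits, Grin2a was higher than in each class, at 4509 CPM against 1842, 835 and 673, while Gria2 and Grin2b were lower. Among 35 sodium and potassium channel genes, Kcnh1, Kcnh7, Kcnj6 and Kcnn3 were higher and Kcnc2 lower. Kcnc2 codes for a Kv3 channel that serves fast spiking, and stood at 570 CPM in Lamp5 nuclei against 2360, 3000 and 1083. Kcnh7, an Erg-type potassium channel, was at 1629 CPM against 334, 910 and 469. Among 21 calcium channel and release genes, Cacna2d1 and Cacna1e were higher and Cacna1i, a T-type channel, lower. Cacna2d1, the alpha-2-delta-1 subunit, was at 2058 ± 506 CPM (1234 to 3297), against 54.7 in Sst, 51.4 in Pvalb and 299 in Vip nuclei, with no overlap with any of the 3 classes.

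Of 16 transcription factors tested, Tox2 was higher than in all 3 classes and Satb1 and Npas3 lower. Nos1, Oprm1 and Tacr1, of 16 nitric oxide and peptide genes, were higher and the cyclic GMP phosphodiesterase Pde9a lower. With at most 4000 genes Nos1 no longer passed against Sst nuclei (log2 difference 0.56 where it was 0.73, edgeR Benjamini-Hochberg adjusted p = 0.0904). Oprm1, the mu opioid receptor, was at 101 CPM against 75.3, 36.8 and 56.3. Of 19 neuregulin, ErbB and adhesion genes, Nrg1, Nrg2, Nlgn1, Cntn5, Unc5c and Robo2 were higher and Nrg3, Nrxn3, Cntnap5a and Cntn4 lower. Of 22 interneuron genes that the study names, a list it chose on these libraries, Gabbr2 and Cacna1e were among those higher and Kcnc2, Ctnnd2, Epha7 and Igsf3 lower.

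The first question across genotypes was whether the number of Lamp5 nuclei moved with tau or with loss of Cgas. As a share of gated GABAergic nuclei, Lamp5 nuclei made up 4.30, 3.25, 3.40, 6.26 and 2.06% in the 5 Cgas+/+ mice. In P301S Cgas+/+ mice the lowest, median and highest shares were 0.762, 4.05 and 6.19%, in P301S Cgas+/- mice 1.11, 4.31 and 5.68%, and in P301S Cgas-/- mice 2.18, 4.55 and 9.01%. The groups overlapped throughout. Group means were 3.86 ± 1.56% (SD, n = 5), 3.88 ± 1.94% (n = 6), 4.02 ± 1.56% (n = 6) and 5.14 ± 2.59% (n = 6). The 2 Cgas+/- mice without the transgene had 2.32 and 3.91%, and the 2 Cgas-/- mice 4.76 and 2.86%.

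With the rule and denominator as given, no shift in the share of Lamp5 nuclei was larger than the SD of either group compared. P301S Cgas+/+ differed from Cgas+/+ by 0.0285 percentage points (the tau contrast, exact two-sided permutation p = 0.983). P301S Cgas-/- differed from P301S Cgas+/+ by 1.25 points (the deletion contrast, exact permutation p = 0.359) and P301S Cgas+/- from P301S Cgas+/+ by 0.132 points (the heterozygous contrast, exact permutation p = 0.892). Each adjusted p over the 6 share tests was 0.983, and the smallest exact permutation p that 6 against 6 mice allow is 0.00216. Within libraries of software version 3.0.2 the differences were 0.273, -0.345 and -1.13 points in that order, and within version 3.1.0 they were -0.107, 2.05 and 0.762. Each of the 3 differences had opposite signs in the 2 versions. Most gated nuclei belonged to none of the 4 classes. With only nuclei of the 4 classes as denominator, added after the data were seen, the differences were 4.63, -3.23 and -3.01 points. Their exact permutation p were 0.377, 0.550 and 0.543. Without P301S Cgas+/- replicate 1, the library with 1536 gated nuclei, the heterozygous difference was 0.713 points. Leaving out 1 mouse at a time moved the tau difference between -0.433 and 0.653 points and the heterozygous one between -0.493 and 0.713, so that both signs occurred. A share of nuclei does not tell fewer Lamp5 cells from less Lamp5 or Gad RNA per nucleus.

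No genotype difference in the balance of Lhx6-positive and Lhx6-negative Lamp5 nuclei passed the test. The Lhx6-positive share was 19.0, 33.3, 19.0, 41.2 and 30.8% in the 5 Cgas+/+ mice, 22.2 to 68.0% in P301S Cgas+/+ (median 31.8%), 5.88 to 54.5% in P301S Cgas+/- (median 37.8%) and 7.41 to 54.5% in P301S Cgas-/- (median 36.1%). Differences were 11.4 points in the tau contrast, -5.19 in the deletion contrast and -3.51 in the heterozygous contrast, with exact permutation p of 0.316, 0.641 and 0.749. These values moved with the membership rule. With at least 3 Lamp5 UMIs, where 5 of the 6 P301S Cgas+/+ mice had members, the tau difference was 49.6 points (57.3 ± 43.4% against 7.69 ± 17.2%, n = 5 each, exact permutation p = 0.0556), and the deletion and heterozygous differences were -17.6 and -24.5 points. With at most 4000 genes they were 4.82, -1.77 and -3.94 points. Leaving out 1 mouse turned 2 of the 3 signs. The deletion difference became 0.401 points when P301S Cgas+/+ replicate 4 was dropped, or 0.306 for P301S Cgas-/- replicate 2. The heterozygous difference became 2.62 points when P301S Cgas+/- replicate 1 was dropped, 2.08 for P301S Cgas+/+ replicate 4 or 0.786 for replicate 3 of that group. Within version 3.0.2 they were -2.04, -7.95 and -0.843 points, and within version 3.1.0 17.7, -3.81 and -4.84. After thinning to 5000 UMIs the group means were 20.4% in Cgas+/+, 27.2% in P301S Cgas+/+, 22.2% in P301S Cgas+/- and 22.1% in P301S Cgas-/-. Thinning lowered the Lamp5 share of gated nuclei to 1.33, 1.31, 1.44 and 1.85% in the same order. The tau, deletion and heterozygous differences in that share were then -0.0228, 0.544 and 0.139 points (exact permutation p of 0.957, 0.117 and 0.710). The SDs behind the deletion difference were 0.718 in P301S Cgas+/+ and 0.312 in P301S Cgas-/- mice.

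**Figure D4:**
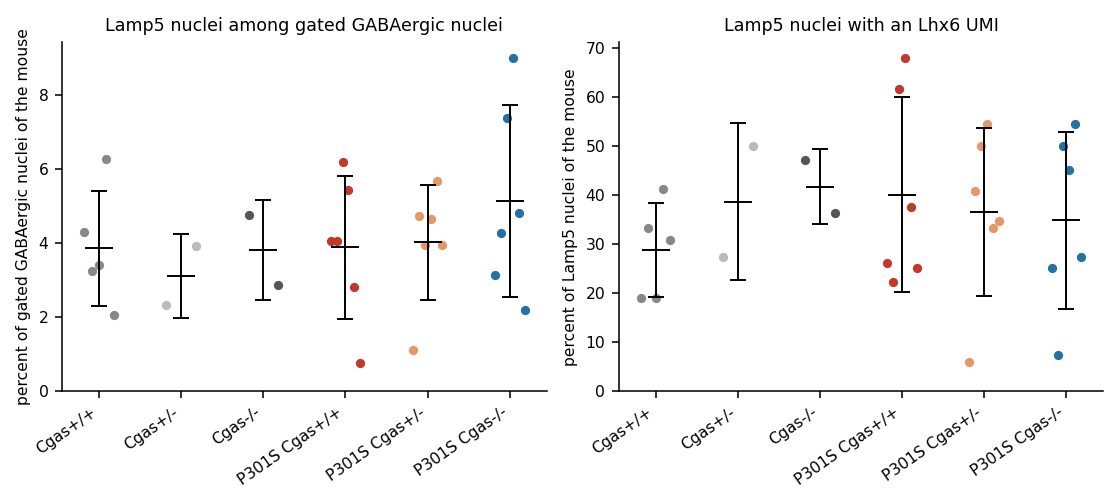
Share of Lamp5 nuclei among gated GABAergic nuclei (percent) and share of Lhx6-positive nuclei among Lamp5 nuclei (percent) in the 6 groups; each point is 1 mouse, and bars give the mean and SD. The groups overlap in both panels, with Lamp5 shares from 0.762 to 9.01% of gated nuclei.

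The same contrasts were then made for every gene in the Lamp5 nuclei, summed per mouse and tested with sex as a covariate over the 23 mice of the 4 larger groups. Of 4929 genes tested, 0 (0%) passed an adjusted p of 0.05 in the tau, the deletion or the heterozygous contrast (edgeR with Benjamini-Hochberg adjustment), and DESeq2 also called 0. At an unadjusted p under 0.05 edgeR found 140, 194 and 171 genes and DESeq2 116, 186 and 157. Without the low-count filter, 1, 11 and 11 of 19034 genes were called by edgeR. The deletion and heterozygous contrasts share the P301S Cgas+/+ mice with the tau contrast, so a level that is unusual in those mice enters all 3. The genes with the smallest p are given with their values as uncalled. They were picked by p from 4929 genes, so ranges without overlap among them describe the pick and are no support for a difference. How many of all genes have such ranges was not counted.

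Unc5c (chromosome 3, 141465216 to 141834924), a netrin receptor that guides axons, was among the 5 genes of smallest p in the tau contrast. It was at 4002, 3759, 2965, 3990 and 4578 CPM in the Cgas+/+ mice and at 1672 to 2873 (median 2151) in P301S Cgas+/+ mice, without overlap. P301S Cgas+/- mice held 953 to 2840 CPM (median 2297) and P301S Cgas-/- mice 1095 to 2167 (median 1937), so that every P301S mouse lay below every Cgas+/+ mouse. The mice without the transgene and with 1 or no Cgas copy lay at 2830 and 3666 (Cgas+/-) and 3228 and 5950 CPM (Cgas-/-). Gm43049, the gene set beside the transgene label above, lies 704511 bases from Unc5c on the same chromosome, and what part this position has in the Unc5c level was not tested. The log2 difference of the tau contrast was -0.85 ± 0.22 (SE; unadjusted p = 0.000567 in edgeR, Benjamini-Hochberg adjusted p = 1.0, or 0.000782 without the low-count filter). Uck2 (chromosome 1, 167222883 to 167285320), a uridine-cytidine kinase, was at 23.03, 23.6, 16.7, 37.9 and 10.4 CPM in Cgas+/+ and 23.4 to 79.1 (median 68.3) in P301S Cgas+/+ mice, a difference of 1.39 ± 0.34. The other 3 of smallest p were Efcab2 (-1.42 ± 0.40), Lsm14a (1.3 ± 0.38), an RNA-binding protein of processing bodies, and the noncoding 4933406I18Rik (0.75 ± 0.23).

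In the deletion contrast the smallest p belonged to Zfp346 and Mcu, with an adjusted p of 0.430 each (edgeR, Benjamini-Hochberg). Zfp346 (chromosome 13, 55105311 to 55134825), a zinc finger protein that binds double-stranded RNA, was at 23.4 to 90.8 CPM (median 47.5) in P301S Cgas+/+ and 90.8 to 174 (median 111) in P301S Cgas-/- mice, a log2 difference of 1.0 ± 0.23. Without P301S Cgas+/+ replicate 4 it was called (1.31, edgeR Benjamini-Hochberg adjusted p = 0.0321). Cgas+/+ mice held 92.1, 86.7, 121, 111 and 93.6 CPM, within or just under the P301S Cgas-/- range. Mcu (chromosome 10, 59446984 to 59616692), the mitochondrial calcium uniporter, was at 80.6 to 234 CPM (median 114) in P301S Cgas+/+ and 39.6 to 65.3 (median 53.1) in P301S Cgas-/- mice, without overlap (-1.17 ± 0.28). In Cgas+/+ mice it was at 74.9, 150, 100, 51.4 and 83.2 CPM, which overlapped with both groups. Tll1 and the noncoding Gm2516 had differences of -1.79 ± 0.49 and -1.84 ± 0.52. Without the low-count filter Tll1, Mcu, Gm2516 and Zfp346 were called, at edgeR Benjamini-Hochberg adjusted p of 0.00468, 0.00687, 0.0202 and 0.0329. The fifth was an Atp5o gene model (-0.92 ± 0.27) that overlaps Donson, Cryzl1 and another Atp5o model on the same strand.

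In the heterozygous contrast Fstl4 (chromosome 11, 52764634 to 53188538), a follistatin-like secreted protein, was at 93.5 to 432 CPM (median 238) in P301S Cgas+/+ and 347 to 751 (median 507) in P301S Cgas+/- mice, with 328, 315, 309, 233 and 323 CPM in Cgas+/+ mice. Its log2 difference was 1.07 ± 0.26 (edgeR, Benjamini-Hochberg adjusted p = 0.665). Sec16a, which organises exit sites of the endoplasmic reticulum, was at 16.3 to 35.1 CPM and 40.9 to 60.8 CPM in those P301S groups, without overlap (1.06 ± 0.28). Adamts12, a matrix protease, gave 42 UMIs in P301S Cgas+/+ and 2 in P301S Cgas+/- nuclei, a ratio of 26.5 with an exact counting interval of 6.90 to 226. Gm4221 (-1.46 ± 0.38) and Sh3rf1 (-0.67 ± 0.19) completed the list. With the low-count filter none of these 5 genes passed the adjusted threshold, and without it Adamts12, Fstl4 and Gm4221 did (edgeR, Benjamini-Hochberg adjusted p of 6.26e-06, 8.01e-06 and 0.00524).

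**Figure D5:**
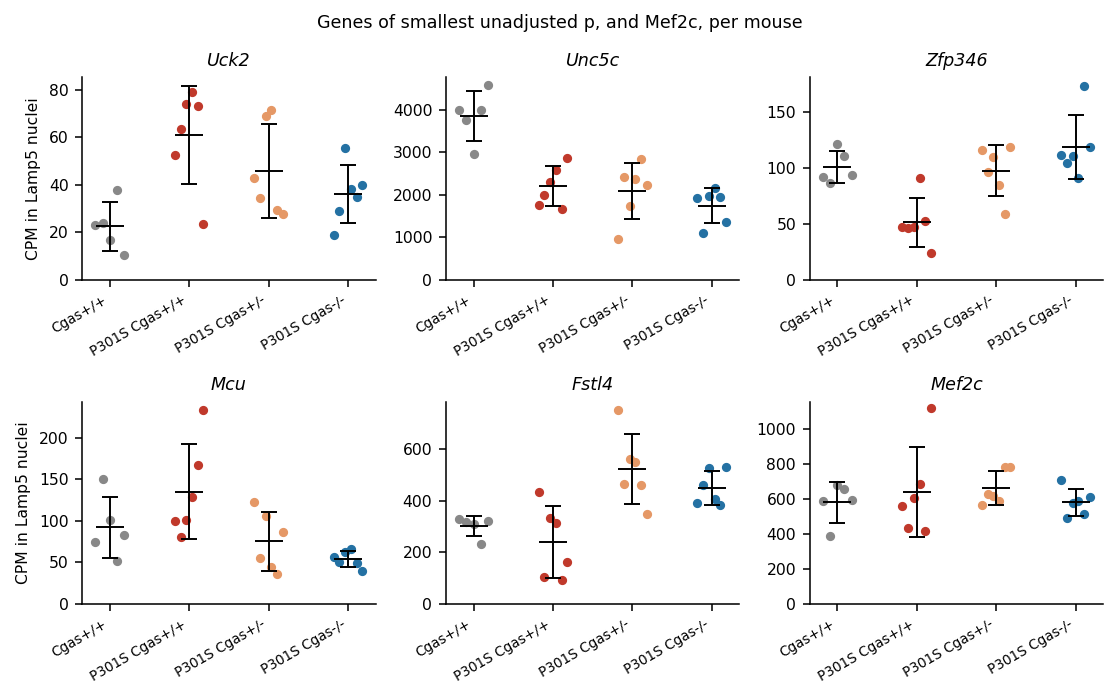
Levels of Uck2, Unc5c, Zfp346, Mcu, Fstl4 and Mef2c in Lamp5 nuclei, in CPM, in the 4 groups of the fit; each point is 1 mouse, and bars give the mean and SD. Unc5c lies lower in all 18 P301S mice than in the 5 Cgas+/+ mice, while Mef2c overlaps across the groups; no gene passed the adjusted threshold with the low-count filter.

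Genotype effects in Lamp5 nuclei were also set against those in Sst, Pvalb and Vip nuclei pooled per mouse, as a difference of effects. Of 9123 genes, 0 (0%) passed an adjusted p of 0.05 in each contrast (edgeR with Benjamini-Hochberg adjustment; DESeq2 was not run on this comparison), with 316, 364 and 422 at an unadjusted p under 0.05. Unc5c had the smallest p in the tau contrast (-0.74 ± 0.17, adjusted p = 0.771), with larger differences for Rhbdd2 (-1.95 ± 0.51), Uck2 (1.42 ± 0.38), Angpt1 (-3.34 ± 0.86) and Ermp1 (-2.66 ± 0.74). The Angpt1 difference was -2.04 without Cgas+/+ replicate 3 and -4.09 without Cgas+/+ replicate 4, and without the low-count filter it was called (edgeR, Benjamini-Hochberg adjusted p = 0.00157). With at least 3 UMIs of the class gene, the Unc5c difference was 0.14. In the deletion contrast the first were Zfp346 (1.08 ± 0.26), Nono (1.90 ± 0.48), Cntn4 (-1.68 ± 0.38), Mcu (-0.97 ± 0.26) and Cables1 (1.39 ± 0.37), each at an adjusted p of 0.597. In the heterozygous contrast Neto1, an auxiliary subunit of kainate receptors, came first (0.95 ± 0.21, adjusted p = 0.385), followed by Larp1b (-1.09 ± 0.28), Sema3a, Fgfr1 (-2.40 ± 0.62) and Zfp407 (0.86 ± 0.22). Sema3a, a repulsive guidance cue, gave 0 UMIs in the pooled Lamp5 nuclei of P301S Cgas+/+ and 32 in those of P301S Cgas+/- mice. The lower limit by counting error only is 8.4498-fold. That limit leaves out the spread between mice and compares Lamp5 nuclei alone, not the difference of effects. Without the low-count filter Sema3a, Neto1 and Fgfr1 were called (edgeR, Benjamini-Hochberg adjusted p of 4.47e-05, 0.00619 and 0.0351), and Neto1 also without P301S Cgas+/+ replicate 5.

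No member of a gene list was called in Lamp5 nuclei, as was no gene at all (0%). Counts of members at an unadjusted p under 0.05 stand beside 140, 194 and 171 of 4929 over all genes in the tau, deletion and heterozygous contrasts, and nothing is read from them. Of the 16 identity genes 12 were tested and 0 had an unadjusted p under 0.05 in any contrast, with median log2 differences of -0.29, 0.03 and 0.24 in the tau, deletion and heterozygous contrasts against -0.00, -0.00 and -0.00 over all genes. Of the 13 GABA-A receptor subunits 11 were tested, with medians of 0.06, -0.03 and -0.02, and of the 23 calcium channel and release genes 18, with medians of -0.02, -0.04 and 0.08, and again 0 had an unadjusted p under 0.05. Of the 37 sodium and potassium channel genes 30 were tested, and 3, 1 and 3 had an unadjusted p under 0.05. For 22 of 24 glutamate receptor subunits these counts were 0, 0 and 2, for 19 of 19 adhesion genes 1, 2 and 0, and for 10 of 24 nitric oxide and peptide genes 0 in each. They were 2, 1 and 0 for 11 of 20 transcription factors, 0, 1 and 0 for 12 of 13 genes of GABA synthesis, transport and the synapse, 0, 0 and 1 for 7 of 13 genes of tau and its kinases, and 0, 0 and 1 for 3 of 16 markers of other interneuron classes. Only 1 of 33 interferon-stimulated genes (Stat2) and 2 of 17 activity-regulated genes had enough UMIs to be tested, so neither programme could be read at this depth.

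Of the 22 interneuron genes that the study names, 20 were tested and 0 had an unadjusted p under 0.05 in any contrast, with medians of -0.01, 0.12 and 0.04. Mef2c, a transcription factor of neuronal activity, was at 587, 386, 682, 655 and 593 CPM in Cgas+/+ mice. It was at 419 to 1121 CPM (median 584) in P301S Cgas+/+, 568.1 to 786 (median 625.5) in P301S Cgas+/- and 492 to 709 (median 581) in P301S Cgas-/- mice. These ranges overlapped, and the log2 differences were 0.06 ± 0.20, -0.09 ± 0.19 and 0.11 ± 0.18. The direction turned in the tau contrast without P301S Cgas+/+ replicate 6 (-0.15), without Cgas+/+ replicate 2 (-0.05) and with at most 4000 genes. It turned in the deletion contrast without P301S Cgas+/+ replicate 6 (0.12), with at most 4000 genes (0.10) and with at least 3 UMIs of the class gene (0.06). Identity genes varied widely within groups, as for Kit at 0 to 347 CPM and Adarb2 at 164 to 5801 CPM in P301S Cgas+/+ mice. In that group replicate 6 held 4 Lamp5 nuclei with 42807 UMIs, so the edges of the group's ranges can rest on a few UMIs.

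Markers of other cell types were present in the Lamp5 nuclei of every group. The summed level of 8 microglia markers was 16.2 to 47.3 CPM in Cgas+/+, 23.4 to 171 in P301S Cgas+/+, 23.8 to 67.2 in P301S Cgas+/- and 7.92 to 128 in P301S Cgas-/- mice. That of 8 astrocyte markers was 135 to 956, 93.4 to 813, 169 to 965 and 158 to 746 CPM, and that of 6 oligodendrocyte markers 40.6 to 93.6, 46.0 to 134, 48.6 to 100 and 55.5 to 111 CPM. For 8 excitatory neuron markers the ranges were 422 to 682, 327 to 608, 417 to 721 and 403 to 634 CPM. Prox1, named above as a factor of caudal interneurons, was among these 8, so this sum also holds RNA of the interneurons themselves. The 5 progenitor markers, Vcan included, summed to 165 to 282, 70.1 to 290, 36.6 to 310 and 39.5 to 273 CPM, and the 7 vascular and choroid plexus markers to 0 to 55.2, 2.93 to 46.7, 0 to 24.3 and 0 to 20.7 CPM. None of these lists had a marker at 0 in all libraries, these 4 groups overlapped in each, and the part of the markers in the levels above was not tested. The 2 Cgas-/- mice without the transgene held 304 and 320 CPM of progenitor markers, above the Cgas+/+ range.

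Genes were called between females and males in Lamp5 nuclei, where sex was partly confounded with the software version of the headers. Of 4929 genes, 30 (0.609%) differed between females and males (edgeR, Benjamini-Hochberg adjusted p under 0.05), 2 higher in females and 28 lower, and 382 had an unadjusted p under 0.05. Without the low-count filter 89 of 19034 genes passed the same threshold, 29 higher and 60 lower. Xist, the RNA that silences an X chromosome, was higher in females (10.8 ± 0.28 on the log2 scale), and the Y-linked Uty, Kdm5d, Eif2s3y and Ddx3y were lower. The others included Rgs17 (0.64 ± 0.16), a regulator of G-protein signalling, and Ube3a (-0.93 ± 0.19), a ubiquitin ligase. With the software version of the headers as a term, Xist and the 4 Y-linked genes were the 5 that passed, and all 12 libraries of version 3.0.2 came from males. For the other called genes, Rgs17 and Ube3a among them, sex and version cannot be told apart, and version itself was not tested.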

How the data were processed

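Libraries were made from DAPI-sorted nuclei with the 10x Chromium 3' v3 kit, 1 per mouse, so the mouse is the replicate. The deposited values are raw UMI counts per gene and barcode, made by the authors with Cell Ranger (3.1.0 in the submitters' processing notes, 3.0.2 or 3.1.0 in the matrix headers) on mm10 with pre-mRNA reads counted. The annotation release is not given in the sources used here. The deposited barcodes are those Cell Ranger called as nuclei, with counts unscaled. The files list 31053 genes, of which 30934 were placed by gene ID with GENCODE vM21 (GRCm38, the assembly of mm10). Gucy1a1 and Gucy1b1 were not matched by symbol.

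Nuclei were kept with 200 to 8000 genes, a wider limit than the 4000 genes of the study's filter, which would remove 106 of the 543 Lamp5 nuclei. Doublets were not removed, and removal of the highest Scrublet scores per library (scanpy 1.11.5, 0.8% per 1000 barcodes) was an alternative that removed 33 Lamp5 nuclei. The members, gene lists and comparisons were chosen with earlier results of these data known. Counts of a class were summed for each mouse and tested by quasi-likelihood in edgeR 4.0.16 under R 4.3.3 (TMM, filterByExpr, robust fit), with Benjamini-Hochberg adjustment over all genes tested and the SE taken as the log2 difference divided by the square root of F. Such an SE can be too small where 1 side holds few UMIs. Genotype fits held 23 mice and sex as a covariate. Comparisons of classes, of Lhx6-positive with Lhx6-negative nuclei and of genotype effects between classes kept the mouse as a block. The study tested single nuclei with MAST, which is another unit of replication. Nothing in the labels says that mice of a group shared a litter or day. The genotype fits had the 4 groups share 1 estimate of the spread. Shares were compared by exact two-sided permutation over mice. Thinning drew 5000 UMIs without replacement from each nucleus that had as many. Ratios of 3 or fewer UMIs carry 95% exact intervals, and a count of 0 was set to 3 counts over the group; intervals and limits cover counting error only. The genotype test was tested on simulated data.

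Named genes were those called in a genotype contrast or, with fewer than 5 called, the 5 of smallest unadjusted p; the 8 highest and 8 lowest against all 3 classes by their smallest log2 difference; the 6 called genes of largest difference each way between Lhx6 kinds; and members of the gene lists. Alternatives were DESeq2 1.42.0, RLE scaling, no low-count filter, other samples or no sex term, at least 3 UMIs of the class gene, at most 4000 genes, Scrublet removal, other denominators and leaving out each mouse. The software version as a term or split, the denominator of the 4 classes and the Lhx6 fit over mice with at least 3 nuclei per kind were added after seeing the data. Some members of the gene lists are not reported here.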

Additional observations from a re-analysis of the deposited data

Results flagged for a closer look

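Outlying mice were looked for in 76 sets of values, each a measure in 1 group of 5 or 6 mice. In 5 sets a mouse stood apart by more than Dixon's 95% critical value, where chance gives about 1 in 20. The P301S Cgas+/- library of replicate 1 held 1536 gated GABAergic nuclei against 370 to 581 in the others of its group, and its Nos1 level in Lamp5 nuclei was 91.6 CPM against 211 to 242. Ndnf stood at 236 CPM in Lamp5 nuclei of P301S Cgas+/+ replicate 2 against 0 to 76.0 in the other 5 mice. Zfp346 stood at 174 CPM in P301S Cgas-/- replicate 5 against 90.8 to 119, and Fstl4 at 233 CPM in Cgas+/+ replicate 4 against 309 to 328.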

How the results depend on the processing

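Of the values of single genes recomputed under another setting, 1113 kept their direction and side of the threshold, 28 newly passed it, 13 no longer did and 6 turned. Without the low-count filter the tau, deletion and heterozygous contrasts called 1 (Unc5c), 11 and 11 genes (Adamts12, Fstl4 and Tll1 among them), their differences of effects 1, 5 and 10, and the comparison of the sexes 89, or 5 with the software version as a term. Against Pvalb nuclei 2186 genes passed with at least 3 UMIs of the class gene, and between Lhx6 kinds 285 with at least 2 Lhx6 UMIs (2 mice) and 712 over the 24 mice with at least 3 nuclei of each kind. The uncalled difference in Lamp5 share turned in the tau contrast to -0.107 points within version 3.1.0, -0.378 with at most 4000 genes, -0.0789 after Scrublet removal, -0.0228 after thinning and -0.0528 of all nuclei. In the deletion and heterozygous contrasts it turned to -0.345 and -1.13 within version 3.0.2, and to -3.23 and -3.01 of the 4 classes. The Lhx6 share turned to -2.04 in the tau contrast within version 3.0.2. Among genes, Unc5c turned to 0.14 in the difference of the tau effects and Sox6 to -0.33 against Vip nuclei with at least 3 UMIs, Nr2f2 to 0.11 against Sst nuclei with at most 4000 genes, and Mef2c to -0.000726 (tau) and 0.104 (deletion) with at most 4000 genes and to 0.0577 (deletion) with at least 3 UMIs. The cause was not tested.

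Leaving out 1 mouse at a time gave 0 called genes in the tau and heterozygous contrasts and 0 to 1 in the deletion contrast, where Zfp346 was called (1.31, edgeR Benjamini-Hochberg adjusted p = 0.0321) without P301S Cgas+/+ replicate 4. Differences of effects gave 0 (tau), 0 to 1 (deletion, with 1 without P301S Cgas-/- replicate 1 or P301S Cgas+/+ replicate 5) and 0 to 1 (heterozygous, with 1 without P301S Cgas+/+ replicate 4 or 5). The Lamp5 share difference ran from -0.433 to 0.653 points (tau), 0.479 to 1.84 (deletion) and -0.493 to 0.713 (heterozygous), and the Lhx6 share from 5.79 to 15.0, -9.12 to 0.401 and -7.11 to 2.62. Mef2c ran from -0.154 to 0.155 (tau) and -0.194 to 0.116 (deletion). No paired analysis was possible because replicate numbers were given in accession order and pair no mice between groups. Between 4 and 40 Lamp5 nuclei per mouse stand behind each value of the genotype contrasts. Genes called without the low-count filter held from 15 (Vipr2) to 28147 UMIs (Tenm2) in all Lamp5 nuclei, with Unc5c at 15655 and Fstl4 at 2341.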

Other observations

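Ndnf and Nos1 were detected together in 66 of the 543 Lamp5 nuclei, Ndnf alone in 85, Nos1 alone in 269 and neither in 123. The 36 Lamp5 nuclei with no UMI of Lhx6 or Adarb2 held Reln in 66.7%, Nos1 in 44.4%, Ndnf in 16.7% and Npy in 2.78%, at a median depth of 10413.5 UMIs. The 303 nuclei with Adarb2 alone held Reln in 72.3%, Nos1 in 44.6%, Ndnf in 45.2% and Npy in 25.7%, at a median of 9856 UMIs. Nos1 was detected in 92.4% of the 145 nuclei with both Lhx6 and Adarb2 and in 84.7% of the 59 with Lhx6 alone. These shares were not thinned to a common depth.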
